A study of Mus musculus with 16 samples.

Results

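Integrins are the adhesion receptors of the cell surface, and 10 of their chains were followed here in mouse mast cells: the alpha chains Itga2b, Itga4, Itga5, Itgae, Itgav and Itgax and the beta chains Itgb1, Itgb2, Itgb3 and Itgb7. The probes were chosen by name: every non-control probe whose gene name in the array files is one of these symbols, which gave 23 of 41174 probes. A probe was kept if, in some group, 3 or 4 of the 4 arrays had it well above background in Cy5 or in Cy3, which left 16 of the 23, and every one of the 10 genes had such a probe and was tested among 17083 genes. The probe used for each gene was well above background in both channels on all 16 arrays. The 7 probes left out are 4 of Itga4, 2 of Itgav and 1 of Itgb1.

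An integrin is a pair of an alpha chain and a beta chain, and the pair decides which ligand a cell can hold. Itga5 with Itgb1 binds fibronectin, Itgav with Itgb3 binds vitronectin and osteopontin, and Itga4 with Itgb1 or Itgb7 binds VCAM-1 or MAdCAM-1 on vessel walls. Itgae pairs with Itgb7 and holds cells to E-cadherin of epithelia, Itgax (CD11c) pairs with Itgb2 and binds complement fragments and ICAM-1, and Itga2b (CD41) pairs with Itgb3 in the fibrinogen receptor of platelets, which mast cells grown from bone marrow also carry. Mast cell progenitors need Itga4 and Itgb7 to reach the gut, and mature mast cells use integrins to settle in tissue and to strengthen degranulation on a matrix.

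The cells were bone marrow cells grown for more than 4 weeks in RPMI with 10% serum, 5 ng/ml interleukin 3 and 40 ng/ml stem cell factor, to a stated purity above 90%, and the labels call them immature. Activated cells were loaded with anti-DNP IgE at 5 ug/ml for 1 h and then given the antigen DNP-HSA at 100 ng/ml, and resting cells received neither. Both kinds were treated with a polyclonal goat agonist antibody against TIM-3, a receptor of immune cells, or with goat IgG, each at 15 ug/ml and for 2 h or 16 h. Each array carried RNA of anti-TIM-3-treated cells in Cy5 and RNA of IgG-treated cells in Cy3, with 4 arrays for each pairing of cell state (activated or resting) and time. The dye assignment was the same throughout, so the effect of the antibody and a dye bias of the probe cannot be told apart inside 1 group, whereas a constant bias drops out when groups are subtracted. No label ties replicates to separate cultures or mice, and the p-values therefore reflect only how these samples vary, which may be technical.

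On the 16 arrays, 53.75% to 66.26% of spots were well above background in Cy5 and 52.71% to 60.8% in Cy3, and 0 spots were saturated. All 13 mast cell markers listed were above background on all arrays, as were 8 of 11 megakaryocyte and platelet markers. Of 16 macrophage and dendritic cell names listed, 14 were on the array and 11 were above background on all arrays. So were all 3 basophil markers (Cd200r3, Mcpt8 and Prss34), 2 of 5 eosinophil names (4 on the array) and 4 of 9 lymphocyte markers. Of the 9 neutrophil markers listed, 2 (Mpo and S100a9) were above background in Cy3 on all arrays and 3 (Elane, Camp and Ngp) on none. Of the 6 red cell markers 2 (Hba-a1 and Epor) were above it on all arrays and 2, Alas2 among them, on none, and of the 6 fibroblast markers 1 (Col1a2) on all and 2 (Dcn and Lum) on none. In such bulk RNA, fewer cells of a type and less RNA per cell cannot be told apart. The log ratios of 3 arrays stood apart from their groups and resembled each other, with correlations across genes of 0.517, 0.643 and 0.792: replicate 3 of resting cells at 2 h and replicates 1 and 3 of resting cells at 16 h. Results that lose their call without these 3 arrays are given both ways.

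The sequences just before the start of Itga5, Itgav and Itgax are shown because these are the chains whose levels moved most over the 8 combinations of cells, time and antibody, by 1.78, 1.43 and 2.25 on the log2 scale. RefSeq's table for GRCm38.p6 held a promoter window for 7 of the 10 genes, without Itgae, Itgb2 and Itgb3. Printed are the 250 bases before the annotated start, 5′ to 3′ on the gene's strand, for Itga5 at chr15:103366792-103367041 (minus strand), Itgav at chr2:83724147-83724396 (plus strand) and Itgax at chr7:128129300-128129549 (plus strand). Capitals mark matches, on either strand, to short motifs of factors that act in activated or developing mast cells. The letters searched were TGANTCA for AP-1, AGATAA for GATA factors, AGGAAG for PU.1, GGAAAA for NFAT and CACGTG for the E-box of MITF, and a site of NF-kappaB was searched as well.
Itga5: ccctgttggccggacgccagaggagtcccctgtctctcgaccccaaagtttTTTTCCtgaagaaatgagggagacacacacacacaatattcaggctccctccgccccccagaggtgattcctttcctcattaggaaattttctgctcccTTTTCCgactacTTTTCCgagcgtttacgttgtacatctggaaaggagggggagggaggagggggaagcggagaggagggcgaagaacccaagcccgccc
Itgav: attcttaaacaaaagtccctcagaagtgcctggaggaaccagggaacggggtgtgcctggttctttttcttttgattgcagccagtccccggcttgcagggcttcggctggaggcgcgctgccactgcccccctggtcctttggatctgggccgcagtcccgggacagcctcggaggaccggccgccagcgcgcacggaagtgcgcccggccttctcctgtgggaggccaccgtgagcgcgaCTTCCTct
Itgax: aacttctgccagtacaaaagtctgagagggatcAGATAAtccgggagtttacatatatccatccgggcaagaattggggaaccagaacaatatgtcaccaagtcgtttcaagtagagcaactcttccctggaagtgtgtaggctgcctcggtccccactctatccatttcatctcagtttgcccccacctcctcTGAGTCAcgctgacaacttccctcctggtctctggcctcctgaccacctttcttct
The Itga5 window held 3 matches to the NFAT motif, of which at least 1 is found in 20.4% of 32851 windows of the same length. The Itgav window held 1 match to the PU.1 motif, found in 29.5% of windows. The Itgax window held 1 match to the AP-1 motif, found in 6.75% of windows, and 1 to the GATA motif, found in 9.99%. None of the matches shown overlap, and they describe letters only.

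After 2 h of antigen Itga5 and Itgav, alpha chains of receptors for fibronectin and vitronectin, were higher in both anti-TIM-3-treated and IgG-treated cells, while Itgb7 and Itga2b were lower. In limma's model over all genes, 5 of the 10 members passed an adjusted p of 0.05 in anti-TIM-3-treated cells (2 higher, 3 lower), where 45.4% of all genes tested passed (17.1% higher, 28.2% lower). In IgG-treated cells 5 members passed (2 higher, 3 lower), where 42.9% of all genes passed (15.3% higher, 27.6% lower), so the members' share is close to that of all genes. The members' median change was 0.00 with anti-TIM-3 and -0.12 with IgG, beside -0.05 and -0.04 for all genes. Both comparisons are between arrays, within a channel and after normalization between arrays.

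Itgav, whose chain joins several beta chains, had log2 levels of 10.46, 10.28, 10.44 and 10.52 in activated anti-TIM-3-treated cells at 2 h (replicates 1 to 4), against 9.30, 9.68, 9.23 and 9.67 in resting ones. In IgG-treated cells its levels were 10.28, 10.31, 10.48 and 10.40 with antigen, against 8.97, 9.42, 9.49 and 9.53 without. Every activated array was above every resting one in both channels. The difference was 0.95 ± 0.12 (SE, adjusted p = 3.77e-06) with anti-TIM-3 and 1.01 ± 0.10 (adjusted p = 3.04e-07) with IgG, a 1.93-fold and a 2.02-fold rise. The dimmer kept probe of Itgav gave 0.69 with anti-TIM-3 and 0.45 with IgG, so the size differed between probes and the direction did not.

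Itga5, the alpha chain of the fibronectin receptor, had log2 levels of 9.50, 9.17, 9.33 and 9.21 in activated anti-TIM-3-treated cells at 2 h, against 8.49, 8.21, 8.38 and 8.61 in resting ones. With IgG its levels were 9.19, 9.24, 9.50 and 9.14 in activated cells, against 8.47, 8.45, 8.40 and 8.57 in resting cells. The groups did not overlap. The rise was 0.88 ± 0.19 (SE, adjusted p = 0.00106) with anti-TIM-3 and 0.80 ± 0.09 (adjusted p = 1.76e-06) with IgG. On the 2 slides that held both groups, the difference with IgG was 0.75 and 0.92 for Itga5 and 1.32 and 0.95 for Itgav. Itgb1, the beta partner of Itga5, had a 2 h difference of 0.11 with anti-TIM-3 (95% interval -0.06 to 0.285, adjusted p = 0.346) and of 0.11 with IgG (adjusted p = 0.118), and neither passed the test; its second probe gave 0.26 and 0.17.

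**Figure D1:**
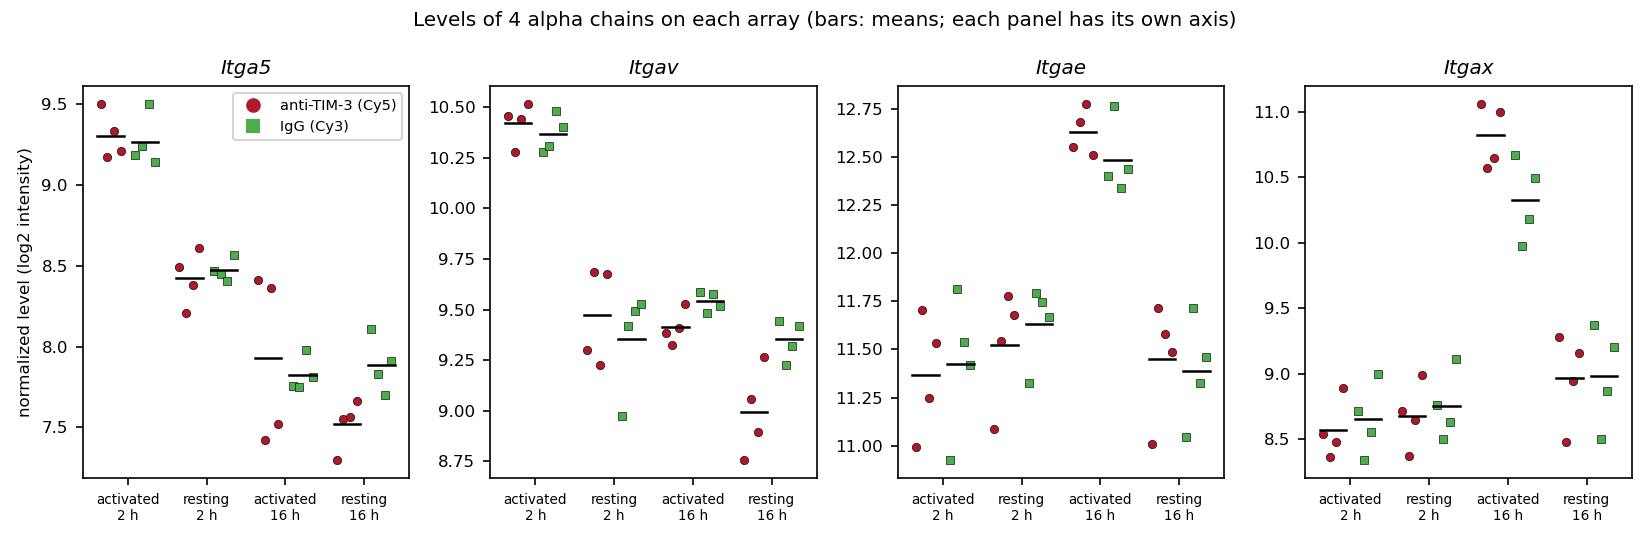
Normalized log2 level of Itga5, Itgav, Itgae and Itgax on each array (vertical axis), by group (horizontal axis), in anti-TIM-3-treated cells (Cy5, circles) and IgG-treated cells (Cy3, squares), with bars at group means. The levels of Itga5 and Itgav are highest in activated cells at 2 h (means of 9.30 and 10.42 with anti-TIM-3), and those of Itgae and Itgax in activated cells at 16 h (12.63 and 10.82).

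Itgb7, the beta chain shared by the gut-homing pairs, had log2 levels of 14.84, 15.02, 14.88 and 14.85 in activated anti-TIM-3-treated cells at 2 h, against 15.35, 15.46, 15.26 and 15.27 in resting ones. With IgG the levels were 15.14, 15.24, 15.07 and 15.16 in activated cells, against 15.28, 15.48, 15.38 and 15.33 in resting cells. Neither pair of groups overlapped. It fell by 0.44 with anti-TIM-3 (SE 0.06, adjusted p = 1.09e-05) and by 0.22 with IgG (SE 0.05, adjusted p = 0.00317). With Agilent's processed signals scaled to the 75th percentile, the changes were -0.23 with anti-TIM-3 (adjusted p = 0.0645) and -0.09 with IgG (adjusted p = 0.371), which ended both calls.

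Itga2b, the alpha chain of the fibrinogen receptor, averaged 12.64 ± 0.12 in activated and 13.09 ± 0.24 in resting anti-TIM-3-treated cells at 2 h (SD, n = 4 each). In IgG-treated cells it averaged 13.28 ± 0.10 with antigen and 13.61 ± 0.11 without. It fell by 0.46 with anti-TIM-3 (adjusted p = 0.00453) and by 0.33 with IgG (adjusted p = 0.0058), with no overlap between groups. The remaining call with anti-TIM-3 was Itga4, which fell by 0.27 (adjusted p = 0.0437), and the remaining call with IgG was Itgb3, which fell by 0.15 (adjusted p = 0.0419, n = 3 activated arrays). The activated and resting arrays overlapped in both. Itga4 lost its call when any of 6 single arrays was left out, without the 3 arrays that stood apart (-0.24, adjusted p = 0.0719) and with the mean of its kept probes (-0.14, adjusted p = 0.0799). The Itgb3 call held in only 5 of 16 alternative settings (-0.341 to -0.0608, largest adjusted p = 0.543) and was lost without the 3 arrays (-0.15, adjusted p = 0.0587). The second probe of Itgb3 moved the other way, by 0.25 with IgG (adjusted p = 0.00382) and 0.43 with anti-TIM-3 (adjusted p = 8.05e-05, both over all probes). With the replicate number as a block, Itga4 also passed in IgG-treated cells (-0.16, adjusted p = 0.0407, against 0.113 without the block). Itgb2 then passed in anti-TIM-3-treated cells (0.30, adjusted p = 0.0147, against 0.194 without the block).

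At 16 h other alpha chains stood out. Itgae and Itgax were higher with antigen in both anti-TIM-3-treated and IgG-treated cells, Itgb3 rose in both by unequal amounts, and Itga4 fell in both. With IgG the calls of Itgb3 and Itga4 held in only 6 and 5 of 16 alternative settings. In IgG-treated cells Itga5 and Itgav, the chains that rose at 2 h, differed by -0.07 and 0.19 and did not pass (adjusted p = 0.709 and 0.25). In anti-TIM-3-treated cells 9 of 10 members passed the test (5 higher, 4 lower), against 19.3% of all genes (9.47% higher, 9.79% lower). In IgG-treated cells 4 members passed (3 higher, 1 lower), against 12.3% of all genes (5.3% higher, 7.02% lower). The median change of the members was 0.41 with anti-TIM-3 and 0.09 with IgG, where the median of all genes was 0.00498 and 0.00114. Without the 3 arrays that stood apart, 5 members passed with anti-TIM-3 (4 higher, 1 lower), of 10.9% of all genes.

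Itgax, better known as CD11c of dendritic cells, had log2 levels of 11.06, 10.573, 10.645 and 10.998 in activated anti-TIM-3-treated cells at 16 h, against 9.28, 8.48, 8.94 and 9.15 in resting ones. With IgG the levels were 10.67, 9.97, 10.18 and 10.49 in activated cells, against 9.37, 8.50, 8.87 and 9.20 in resting cells. The lowest activated array was above the highest resting one in both channels. The rise was 1.86 ± 0.17 (SE, 3.62-fold, adjusted p = 2.27e-06) with anti-TIM-3 and 1.34 ± 0.20 (2.54-fold, adjusted p = 0.000297) with IgG. At 2 h its difference was -0.11 with anti-TIM-3 and -0.10 with IgG, and neither passed (adjusted p = 0.656 and 0.735). A second Itgax probe, designed on another transcript (AK089167) and not above background on every array, gave 0.26 with anti-TIM-3 and 0.15 with IgG at 16 h.

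Itgae (CD103), the chain that holds cells to epithelium, had log2 levels of 12.55, 12.68, 12.78 and 12.51 in activated anti-TIM-3-treated cells at 16 h, against 11.01, 11.72, 11.58 and 11.49 in resting ones. With IgG they were 12.40, 12.77, 12.34 and 12.44 in activated cells, against 11.05, 11.71, 11.33 and 11.46 in resting cells. All activated arrays were above all resting ones. The rise was 1.18 ± 0.17 (adjusted p = 0.000199) with anti-TIM-3 and 1.10 ± 0.17 (SE, adjusted p = 0.000513) with IgG. The second probe of Itgae gave 1.04 and 1.12 for the same comparisons. On the 2 slides that held both groups, the Itgae difference with IgG was 1.04 and 1.54, and that of Itgax 1.46 and 0.95.

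The beta partners did not follow their alpha chains in a common way. Itgb7, the partner of Itgae, averaged 15.25 ± 0.03 in activated and 15.74 ± 0.08 in resting anti-TIM-3-treated cells at 16 h, and fell by 0.49 (adjusted p = 2.29e-05). In IgG-treated cells it averaged 15.68 ± 0.05 with antigen and 15.67 ± 0.06 without, a difference of 0.00428 with a 95% interval of -0.10 to 0.11. Itgb2, the partner of Itgax, averaged 11.79 ± 0.16 in activated and 10.98 ± 0.40 in resting anti-TIM-3-treated cells (SD, n = 4 each) and rose by 0.81 (adjusted p = 0.00452). In IgG-treated cells Itgb2 averaged 11.33 ± 0.22 with antigen and 10.87 ± 0.45 without, a difference of 0.47 (95% interval 0.09 to 0.84) that did not pass (adjusted p = 0.134) and passed with the replicate number as a block (adjusted p = 0.00195).

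Itgb3, the chain shared by the vitronectin and fibrinogen receptors, averaged 14.37 ± 0.09 in activated and 13.49 ± 0.05 in resting anti-TIM-3-treated cells at 16 h, and rose by 0.89 (adjusted p = 6.25e-08). In IgG-treated cells it averaged 13.66 ± 0.03 with antigen and 13.49 ± 0.06 without, a rise of 0.17 (adjusted p = 0.0376) that lost its call without the 3 arrays (0.16, adjusted p = 0.169). Its fibrinogen receptor partner Itga2b averaged 13.17 ± 0.12 in activated and 13.60 ± 0.21 in resting anti-TIM-3-treated cells and fell by 0.43 (adjusted p = 0.0173; -0.31 and 0.179 without the 3 arrays). With IgG, Itga2b differed by -0.09 (adjusted p = 0.571). Of the others with anti-TIM-3, Itga4 fell by 0.48, Itgb1 fell by 0.285 and Itgav rose by 0.42 (adjusted p = 0.00419, 0.0346 and 0.0185). Without the 3 arrays these were -0.34, -0.08 and 0.25 (adjusted p = 0.0815, 0.424 and 0.182), and the second probe of Itgb1 gave 0.05. With IgG, Itga4 fell by 0.26 (adjusted p = 0.0396), and this call was lost when any of 7 single arrays was left out. The second kept probe of Itga4 gave -0.08 with anti-TIM-3 and -0.03 with IgG. Neither value passed (adjusted p = 0.429 and 0.766 over all probes).

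**Figure D2:**
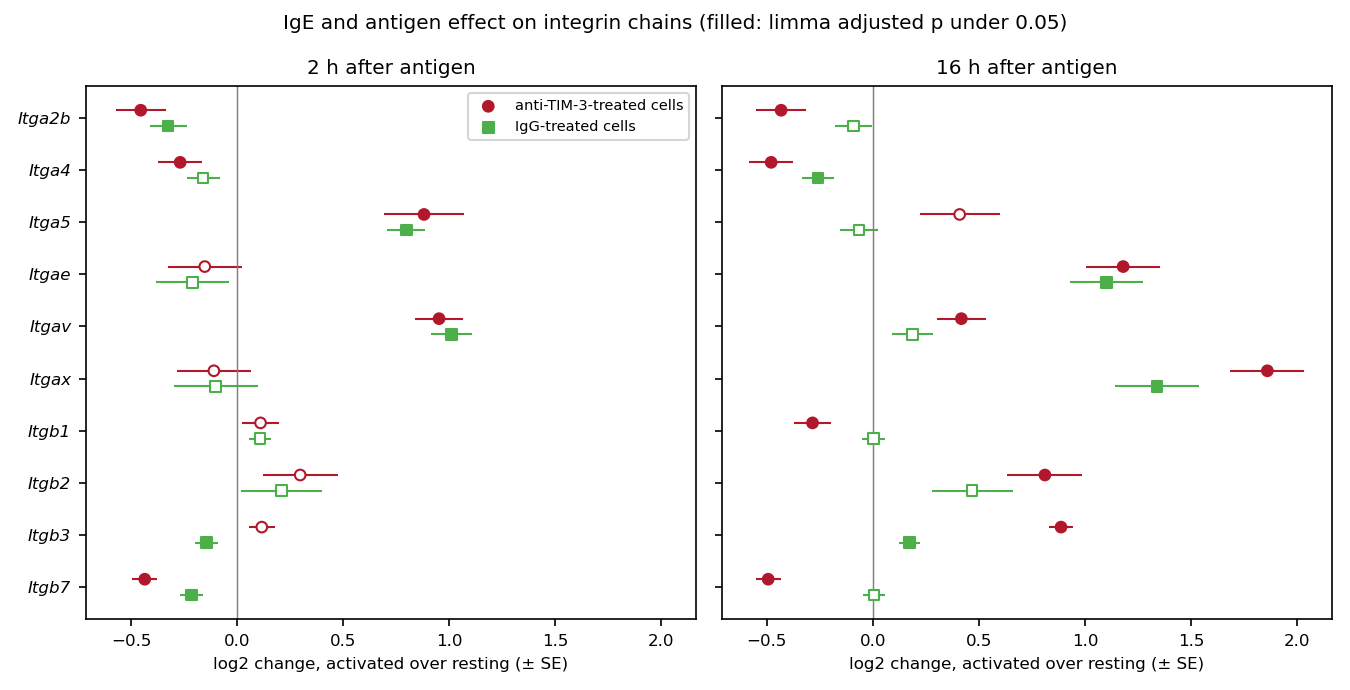
Log2 change of each integrin chain with IgE and antigen, activated over resting (horizontal axis, bars ± SE), at 2 h and at 16 h, in anti-TIM-3-treated cells (circles) and IgG-treated cells (squares), with filled symbols where limma's adjusted p was under 0.05. Itga5 and Itgav stand to the right at 2 h, Itgae and Itgax at 16 h, and at 16 h Itgb3 stands at 0.89 with anti-TIM-3 and at 0.17 with IgG.

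The ratio within each array compares anti-TIM-3 with IgG directly. In activated cells at 16 h Itgb3, Itgax and Itgb2 were higher with anti-TIM-3 and Itgb7 and Itga2b lower, 5 of 10 members (3 higher, 2 lower), against 30.1% of all genes (16.9% higher, 13.2% lower). In activated cells at 2 h 3 members passed (Itgb3 higher, Itga2b and Itgb7 lower), against 33.3% of all genes (17.1% higher, 16.3% lower). In resting cells 1 member passed at 2 h (Itga2b, lower), against 14% of all genes (7.07% higher, 6.92% lower), and 1 at 16 h (Itgav, lower), against 21.6% (11.7% higher, 9.95% lower). The median ratio of the members was 0.01 in activated cells at 16 h (0.0134), beside 0.01 (0.00916) for all genes. With median centring in place of loess the median ratio of all genes was 0.224 in activated and 0.212 in resting cells at 2 h, and 0.389 and 0.296 at 16 h. The share of higher genes among the calls was then 89% in activated cells at 16 h, where loess gave 56%, and 92.9% in activated cells at 2 h, where loess gave 51.2%. In resting cells it was 92.4% at 16 h and 96.8% at 2 h, where loess gave 54% and 50.5%. Falls of the members against IgG are therefore stated for loess and are given under median centring where they turn.

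The response to anti-TIM-3, that is the log ratio, was then compared between groups. At 16 h the response of activated cells differed from that of resting cells in 4 of 10 members (3 higher, 1 lower), against 8.58% of all genes (4.71% higher, 3.87% lower). At 2 h it differed in 2 members (1 higher, 1 lower), against 5.58% of all genes (3.59% higher, 1.99% lower). The 16 h response differed from the 2 h response in 4 members in activated cells (3 higher, 1 lower), against 17.2% of all genes (9.14% higher, 8.05% lower). In resting cells 0 members passed limma's adjusted p of 0.05, against 0.287% of all genes (0.0878% higher, 0.199% lower). Before adjustment 2 members, Itga2b and Itgav, had a limma p under 0.05 (0.023 and 0.00138). The share of all genes at that looser threshold is not given. The members' median difference between activated and resting cells was 0.16 at 16 h, beside 0.0032 for all genes.

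Itgb3 had log2 ratios of 0.85, 0.64, 0.65 and 0.72 in activated cells at 16 h, against -0.12, -0.02, 0.12 and 0.02 in resting cells. No activated array came near the resting ones. The mean ratio was 0.71 ± 0.04 (SE, 1.64-fold, adjusted p = 6.77e-09) in activated cells, and the response differed from that of resting cells by 0.715 ± 0.060 (SE, adjusted p = 1.43e-06). On the 2 slides with both groups the difference was 0.65 and 0.87. At 2 h the ratios in activated cells were 0.20, 0.12 and 0.14 (replicates 2 to 4, since replicate 1 was an outlier spot), against -0.07, -0.20, -0.06 and -0.10 in resting cells. The 2 h rise of 0.15 passed (adjusted p = 0.0251) and lost its call when any of the 3 arrays was left out (0.13 to 0.17).

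The brighter probe of Itgb3, used above, was designed on a cDNA (AK135584) that the file's annotation calls unclassifiable, and the dimmer one on the RefSeq transcript NM_016780. For the dimmer probe the log2 ratios in activated cells at 16 h were 0.80, 0.82, 0.66 and 0.71, against -0.01, 0.19, -0.09 and 0.06 in resting cells. Both probes thus separated the groups at 16 h, with a difference between responses of 0.71 for the dimmer probe. At 2 h the activated cells' response exceeded the resting cells' by 0.26 for the brighter probe (adjusted p = 0.0253 over all probes), and by 0.18 for the dimmer one, which did not pass (adjusted p = 0.167). In resting cells at 2 h the dimmer probe's ratio was 0.17 (adjusted p = 0.0254), where the brighter one gave -0.11 (adjusted p = 0.104). In the Cy3 levels the probes disagreed: 16 h over 2 h was -0.67 in activated and -0.66 in resting IgG-treated cells for the dimmer probe, where the brighter one gave 0.20 and -0.12.

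**Figure D3:**
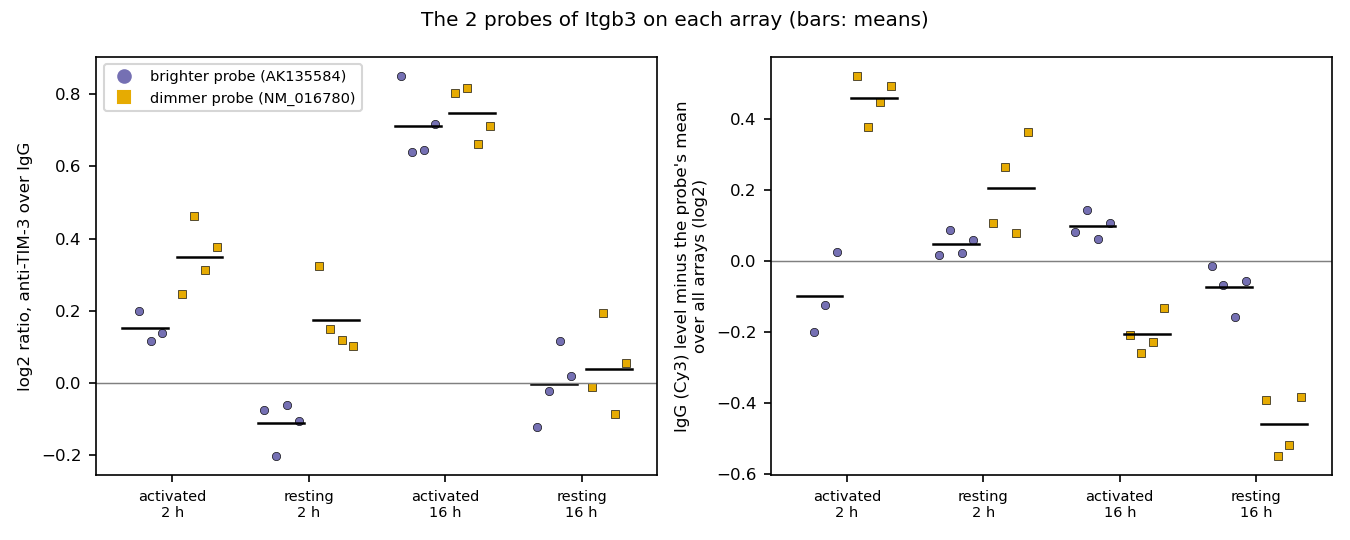
Log2 ratio of anti-TIM-3 over IgG (left) and Cy3 level relative to each probe's own mean (right, log2) for the brighter probe (circles) and the dimmer probe (squares) of Itgb3, per array and group, with bars at means. The ratios of both probes are highest in activated cells at 16 h (0.64 to 0.85 for the brighter probe), whereas the Cy3 levels order the groups differently.

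Itgax had log2 ratios of 0.39, 0.60, 0.46 and 0.51 in activated cells at 16 h, against -0.09, -0.02, 0.08 and -0.05 in resting cells. The mean was 0.49 ± 0.04 (SE, 1.40-fold, adjusted p = 1.77e-07), and the response exceeded that of resting cells by 0.51 ± 0.06 (adjusted p = 2.02e-05). The second Itgax probe gave a ratio of 0.21 in activated cells and 0.10 in resting cells (adjusted p = 0.000109 and 0.0391 over all probes). Its difference of 0.11 did not pass (adjusted p = 0.156). Itgb2 had ratios of 0.45, 0.54, 0.57 and 0.28 in activated cells, against 0.00 (-0.00197), 0.07, 0.31 and 0.09 in resting cells, with 1 resting array (replicate 3) above the lowest activated one. Its mean was 0.46 ± 0.06 (adjusted p = 1.65e-05) and its difference from resting cells 0.34 ± 0.08 (adjusted p = 0.0152; 0.0602 without replicate 1 of the resting cells). The within-slide differences were 0.49 and 0.59 for Itgax and 0.08 and 0.50 for Itgb2. Against activated cells at 2 h, the 16 h response was higher by 0.57 for Itgax, 0.38 for Itgb2 and 0.56 for Itgb3 (adjusted p = 2.19e-06, 0.00356 and 1.46e-05).

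Itgb7 had log2 ratios of -0.53, -0.43, -0.35 and -0.40 in activated cells at 16 h, against 0.03, 0.07, 0.02 and 0.15 in resting cells. At 2 h the ratios were -0.29, -0.22, -0.19 and -0.31 in activated cells, against 0.07, -0.02, -0.12 and -0.06 in resting cells. The activated and resting arrays did not overlap at either time. The mean in activated cells was -0.43 ± 0.04 at 16 h (adjusted p = 3.04e-07) and -0.25 ± 0.04 at 2 h (adjusted p = 7.02e-05), but under median centring both were above 0 (0.49 and 0.50). The means in resting cells passed only in these alternatives. They were lower with Agilent's processed signals (-0.24 at 16 h and -0.28 at 2 h) and higher under median centring (0.81 and 0.65). The difference from resting cells, in which a bias common to all arrays cancels, was -0.50 ± 0.05 at 16 h (adjusted p = 1.14e-05; -0.32 under median centring) and -0.22 ± 0.05 at 2 h (adjusted p = 0.0203). At 2 h the call was lost under median centring (-0.15), with Agilent's processed signals (-0.16), when only these groups were fitted and when any of 3 single arrays was left out. Within slides, the 16 h difference was -0.49 and -0.52. In activated cells the 16 h response lay below the 2 h response (difference -0.18, adjusted p = 0.0306), a call lost under median centring (-0.01, adjusted p = 0.92) and when any of 4 single arrays was left out.

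**Figure D4:**
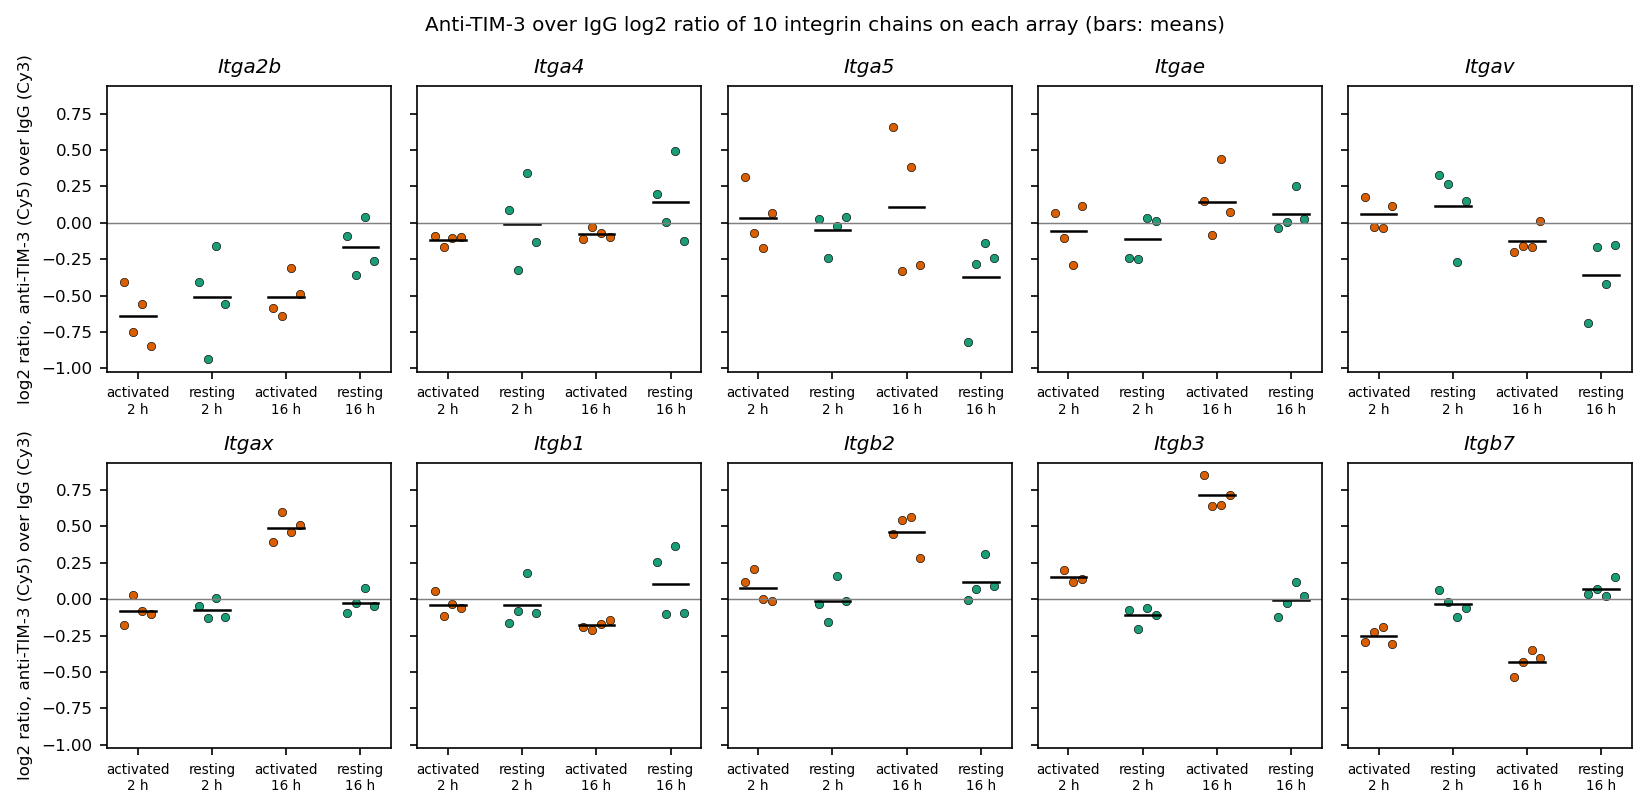
Log2 ratio of anti-TIM-3 (Cy5) over IgG (Cy3) on each array (vertical axis) for the 10 integrin chains, by group (horizontal axis), with bars at means and a line at 0. In activated cells at 16 h Itgax, Itgb2 and Itgb3 lie above and Itgb7 below the resting cells' means, while the ratios of Itga2b lie below 0 on 15 of 16 arrays.

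Itga2b was below 0 in every group. Its log2 ratios were -0.41, -0.75, -0.56 and -0.85 in activated cells at 2 h, against -0.41, -0.93, -0.16 and -0.56 in resting cells. At 16 h they were -0.59, -0.64, -0.31 and -0.49 in activated cells, against -0.09, -0.36, 0.04 and -0.26 in resting cells. The means of -0.64 and -0.51 in activated cells at 2 h and 16 h passed (adjusted p = 9.1e-05 and 0.000785), as did -0.51 in resting cells at 2 h (adjusted p = 0.00219), and -0.17 in resting cells at 16 h did not (adjusted p = 0.238). The call in resting cells at 2 h was lost when only that group was fitted (adjusted p = 0.0864). The groups' responses overlapped, and none of the 4 differences between them passed: activated minus resting was -0.13 at 2 h (95% interval -0.40 to 0.14) and -0.34 at 16 h (-0.61 to -0.07; adjusted p = 0.142). With the replicate block the 16 h difference passed (adjusted p = 0.0223). Under median centring Itga2b's ratio was 0.23 in activated cells at 16 h and 0.00443 in resting cells at 2 h, and -0.09 in activated cells at 2 h. The antibody and a dye bias of this probe cannot be told apart in these values.

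Among the remaining members the main probe's ratio passed for Itgav alone, in resting cells at 16 h. Itgav had log2 ratios of -0.69, -0.17, -0.42 and -0.15 in resting cells at 16 h, a mean of -0.36 ± 0.09 (adjusted p = 0.00943). The lowest values were on replicates 1 and 3, which stood apart, and without the 3 arrays the mean was -0.16 (adjusted p = 0.215). The call held in 9 of 13 alternative settings (-0.427 to -0.00415, largest adjusted p = 0.963). In resting cells at 2 h the main probe gave 0.12 (adjusted p = 0.42), and 0.25 without the 3 arrays, which passed (adjusted p = 0.0054). The second probe of Itgav gave 0.01 in resting cells at 16 h. In activated cells at 2 h it gave 0.32 and passed (adjusted p = 2e-05 over all probes), where the main probe gave 0.06. That response exceeded the resting cells' by 0.24 (adjusted p = 0.0204), and 16 h minus 2 h was -0.29 (adjusted p = 0.0027). The mean of kept probes at 2 h was 0.19 (adjusted p = 0.0153). Itga5 had ratios of 0.66, -0.33, 0.39 and -0.29 in activated cells at 16 h: replicates 1 and 3 were high and replicates 2 and 4 low, and the Cy5 levels (8.41, 7.42, 8.37 and 7.52) split the same way while the Cy3 levels (7.75, 7.75, 7.98 and 7.81) did not. The main probes of Itga4, Itgae and Itgb1 did not pass in any group. A second Itgb1 probe gave 0.12 in activated cells at 2 h (adjusted p = 0.0451 over all probes). With the main probe Itgb1 had ratios of -0.19, -0.21, -0.17 and -0.14 in activated cells at 16 h (adjusted p = 0.053). This main probe was printed 10 times on each array, and the SD between those spots was 0.02 to 0.08.

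Itgax and Itgb2 are also carried by macrophages and dendritic cells, so the markers of those cells are given beside them; their part in the result was not tested. Of 16 such markers 14 were on the array under these names, 12 were tested, and 11 were above background in Cy3 on all arrays, Csf1r, Adgre1, Fcgr1, Flt3 and Zbtb46 among them. Cd209a was above background in Cy3 on no array, Mertk on 1 and Mrc1 on 12. The 12 were summed as intensities before taking the log, so bright markers weigh most. Lyz2 averaged a log2 level of 15.09 in Cy3 and the next brightest, H2-Ab1, 12.66. In activated cells at 16 h the summed log2 level of the 12 was 15.36, 14.32, 15.21 and 15.62 with anti-TIM-3 (replicates 1 to 4), against 15.91, 14.72, 15.61 and 16.22 with IgG. After loess, 8 of the 12 were lower and 1 higher with anti-TIM-3 there, where 13.2% of all genes were lower and 16.9% higher. The sum was lower with anti-TIM-3 on all 4 arrays, by 0.40 to 0.60, on the arrays where Itgax and Itgb2 were higher. These falls are stated for loess only. Under median centring, where the median ratio of all genes was 0.389, the markers are not given. In resting cells at 16 h the sum was 16.64, 15.36, 16.13 and 16.54 with anti-TIM-3, against 16.40, 15.34, 15.82 and 16.25 with IgG. Among the replicates the sum was lowest on replicate 2 in every group and channel, as were Itgax and Itgb2. With antigen at 16 h, 3 of the 12 markers fell and 0 rose with anti-TIM-3, and 1 rose and 0 fell with IgG, while Itgax rose in both. Of all genes, 9.79% fell and 9.47% rose with anti-TIM-3, and 7.02% fell and 5.3% rose with IgG.

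**Figure D5:**
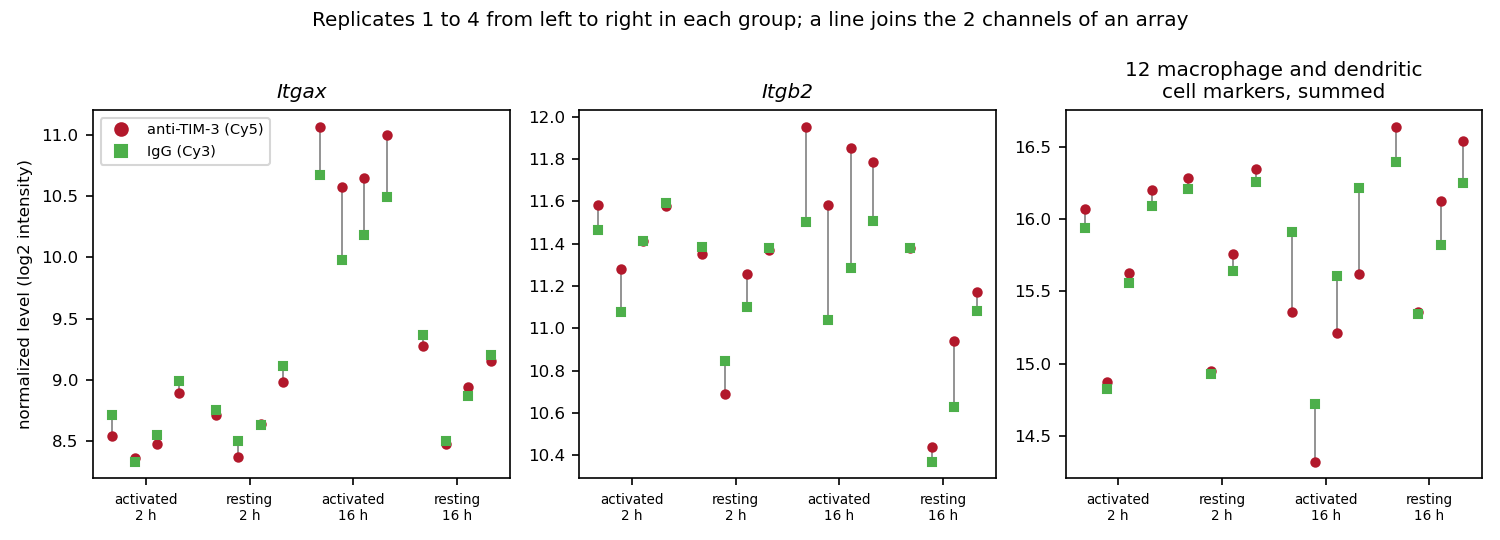
Normalized log2 levels of Itgax, of Itgb2 and of 12 summed macrophage and dendritic cell markers, in anti-TIM-3-treated (Cy5, circles) and IgG-treated cells (Cy3, squares), replicates 1 to 4 from left to right in each group, with a line joining the channels of an array. In activated cells at 16 h the circles lie above the squares for Itgax and Itgb2 (by 0.28 to 0.60) and below them for the marker sum (by 0.40 to 0.60). Intensities were summed before taking the log, and Lyz2 was the brightest marker in the sum.

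The levels at 16 h against 2 h were compared in IgG-treated cells. In activated cells 9 of 10 members passed (6 higher, 3 lower), where 60.1% of all genes passed (33.9% higher, 26.2% lower), and in resting cells 4 passed (2 higher, 2 lower), where 46.9% did (24.1% higher, 22.8% lower). With the replicate number as a block, 7 members passed in resting cells (3 higher, 4 lower), and the share of all genes with the block is not given. The block added Itgae (-0.25), Itgax (0.235) and Itgb2 (-0.31), with adjusted p = 0.0304, 0.0352 and 0.00814. In activated cells Itgax was higher by 1.68 and Itgae by 1.06, and Itga5 was lower by 1.45 and Itgav by 0.83 (log2 changes of -1.45 and -0.83; adjusted p = 1.3e-06, 4.67e-05, 5.09e-10 and 1.29e-06). The second probe of Itgax gave -0.03 there (adjusted p = 0.578), and the mean of its kept probes 0.82. In resting cells Itga5 was lower too (-0.58, adjusted p = 4.61e-05), Itga4 and Itgb7 were higher by 0.41 and 0.305 (adjusted p = 0.000385 and 0.000157) and Itgav differed by -0.000882 (95% interval -0.19 to 0.19).

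Over the 8 combinations of cells, time and antibody, the mean log2 level of Itgax was 10.82 ± 0.25 in activated cells at 16 h with anti-TIM-3 and 10.33 ± 0.31 with IgG (SD, n = 4 each). The other 6 means lay between 8.57 ± 0.23 (activated cells, 2 h, anti-TIM-3) and 8.99 ± 0.39 (resting cells, 16 h, IgG), and each lay within an SD of its neighbours. The 8 means of Itga5 had their top in activated cells at 2 h (9.30 ± 0.15 with anti-TIM-3 and 9.27 ± 0.16 with IgG) and their lowest value in resting cells at 16 h with anti-TIM-3 (7.52 ± 0.16). Itgb1 had the narrowest range of the members, 0.45 between its highest and lowest mean, and the ranges of Itgae, Itga2b, Itgb2, Itgb3, Itgb7 and Itga4 were 1.26, 1.13, 0.93, 0.91, 0.84 and 0.83.

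Over these 8 means the genes with the pattern most like that of Itgax were Enpp2 (Pearson r = 0.995), Olfr706 (0.995) and Optc (0.992). Those most like Itga5 were Creb3l1 (0.994), LOC547111 (0.994) and Lamc1 (0.993), and those most like Itgav were LOC636685 (0.992), C730014E05Rik (0.992) and Prkrip1 (0.989). The 8 means share arrays in pairs, and Olfr706, Optc and Prkrip1 ranged over only 0.467, 0.425 and 0.423 on the log2 scale.

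Of 18 other integrin chains, 9 were measured. At 16 h the response of activated cells to anti-TIM-3 was above that of resting cells for 1 of them and below it for 3, under loess and under median centring alike, where 4.71% of all genes were above and 3.87% below under loess. It was lower for Itgb5, a beta partner of Itgav (difference -0.47, adjusted p = 0.00136), for Itgam, the Mac-1 partner of Itgb2 (-0.39, adjusted p = 0.0056) and for Itga6 of the laminin receptors (-0.32, adjusted p = 0.00493). It was higher for Itgal, the LFA-1 partner of Itgb2, by 0.215 (adjusted p = 0.036). Of the alpha partners of Itgb2, Itgax and Itgal thus lay above and Itgam below the resting cells' response. At 2 h of antigen Itga6 rose by 0.92 with anti-TIM-3 and by 0.80 with IgG (adjusted p = 1.8e-07 and 2.13e-06).

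Of 43 genes of integrin activation and adhesion machinery, 41 were measured. With antigen at 2 h, 16 rose and 10 fell in anti-TIM-3-treated cells and 15 rose and 10 fell in IgG-treated cells, where 17.1% and 15.3% of all genes rose and 28.2% and 27.6% fell. Fermt2 (kindlin-2, which binds beta tails and switches integrins on) rose by 2.44 with anti-TIM-3 and by 1.60 with IgG, and the kinase Fyn by 1.59 and 1.31 (adjusted p = 2.72e-12, 8.99e-10, 8.37e-12 and 5.4e-10). The ratio of anti-TIM-3 over IgG for Fermt2 in activated cells at 2 h was 0.92 ± 0.05 (adjusted p = 3.04e-10), and its response exceeded that of resting cells by 0.84 ± 0.07 (adjusted p = 2.96e-07). With anti-TIM-3 in activated cells, 8 of the genes were higher and 8 lower at 2 h, and 0 higher and 9 lower at 16 h. Of all genes, 17.1% were higher and 16.3% lower at 2 h, and 16.9% and 13.2% at 16 h. Under median centring 29 of the list were higher and 0 lower at 2 h, and 32 higher and 3 lower at 16 h. Of all genes' calls, 92.9% were then higher at 2 h and 89% at 16 h, and the share of all genes passing is not given. The difference from resting cells at 16 h was 0.34 (adjusted p = 0.00504) for the GTPase Rap1b, which acts in integrin activation.

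Of 31 ligands and partners of integrins, 22 were measured. Spp1 (osteopontin, a ligand of the Itgav pairs and of Itga4 pairs) rose with antigen at 2 h by 2.39 with anti-TIM-3 and by 1.30 with IgG (adjusted p = 2.42e-06 and 0.00526). Its ratio of anti-TIM-3 over IgG was 1.28 in activated cells at 2 h (adjusted p = 1.36e-09), above that of resting cells by 1.09 (adjusted p = 3.11e-06). Emp1, a membrane protein of the PMP22 family, rose with antigen at 2 h by 2.07 with anti-TIM-3 and 2.11 with IgG and had a response to anti-TIM-3 in activated cells at 16 h below that of resting cells (difference -0.93, adjusted p = 5.28e-05). The tetraspanin Cd63 was higher with anti-TIM-3 in all 4 groups, by 0.77 and 0.84 in activated and resting cells at 2 h and by 0.61 and 0.66 at 16 h (3 arrays in resting cells at 16 h, where 1 was an outlier spot; largest adjusted p = 2.58e-08), and, as for Itga2b, a dye bias of its probe cannot be told apart from the antibody. Of the 22, 7 were higher and 1 lower with anti-TIM-3 in activated cells at 2 h, and 2 were higher and 6 lower at 16 h. Of all genes, 17.1% were higher and 16.3% lower at 2 h, and 16.9% higher and 13.2% lower at 16 h. Median centring gave 18 of the 22 higher and 0 lower at 2 h and 17 higher and 1 lower at 16 h. Of all genes' calls, 92.9% were then higher at 2 h and 89% at 16 h, and the share of all genes passing is not given.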

How the data were processed

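The authors hybridised RNA of anti-TIM-3-treated cells (Cy5) and IgG-treated cells (Cy3) to Agilent Whole Mouse Genome arrays. The deposited scanner output gives linear intensity per spot, read by Agilent Feature Extraction 9.1.3.1 per the file headers (version 9 per the submitters' processing notes). The authors' deposited value table holds log10 ratios of processed Cy5 over Cy3 that equal the scanner's (largest difference 0, 25.2% of values exactly 0, every column's median 0). The authors' genome build is not given in the sources used here, and promoter coordinates are those of RefSeq's table.

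Values were recomputed with limma 3.58.1 in R 4.3.3: normexp background correction with an offset of 50, which shrinks changes of dim genes, loess within arrays, and Aquantile between arrays for single channels. Control and outlier spots had weight 0, outlier spots were left out, repeated spots were averaged, and each gene is represented by its brightest kept probe. Probes were named through RefSeq accessions or symbols (the members by the file's own name). Levels of different probes were not compared, except to give their weight in the marker sum. Each comparison is a contrast in a single model of all 16 arrays (lmFit, eBayes, two-sided, Benjamini-Hochberg over all genes), with percentages of all genes at the same threshold. Intervals are the estimate ± 1.96 SE. The number of arrays limits the precision. The fit was tested on simulated data.

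Alternatives were other background and dye normalizations, probe filters and probe averages, slide and replicate blocks, fits of the compared groups alone and fits without single arrays. Slides held more than 1 group each, so within-slide differences are printed. Same-numbered arrays deviated together in the Cy3 levels (24 of 24 pairs of arrays with a correlation above 0.1, lowest 0.115). Most did so in the Cy5 levels (21 of 24 pairs, lowest -0.0301). The replicate block is therefore given for both channels where it changes a call. The ratios did so less evenly, with 12 of 24 pairs above 0.1 and correlations from -0.449 to 0.635. The members and gene lists were chosen with earlier results of these data known. All members are named, and of each list at most the 3 largest changes past the threshold per comparison. Some genes of the lists are not reported here by name. Itgal in the 16 h difference between cell states was named after its value was seen, to account for each chain that passed.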

Additional observations from a re-analysis of the deposited data

Results flagged for a closer look

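At 16 h the log ratio of anti-TIM-3 over IgG was not the same in activated as in resting cells: activated minus resting was 0.715 for Itgb3, 0.513 for Itgax, 0.343 for Itgb2 and -0.498 for Itgb7 on the log2 scale, each past limma's adjusted p of 0.05. At 2 h it differed for Itgb3 by 0.262 (0.1759 and not past the threshold for its second probe) and for Itgb7 by -0.22. In activated cells the response at 16 h differed from that at 2 h for Itgax by 0.572, Itgb3 by 0.561, Itgb2 by 0.382 and Itgb7 by -0.176, the last being a call that held in 12 of 17 alternative settings.

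Of 117 sets of 4 arrays checked, 2 held an array far from the others, where chance alone would give about 1 in 20. Replicate 3 of activated cells at 16 h had an Itga2b level of 13.34 with anti-TIM-3, where the others had 13.09 to 13.13. Replicate 2 of resting cells at 2 h had an Itgb2 level of 10.69 with anti-TIM-3, where the others had 11.26 to 11.37.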

How the results depend on the processing

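Of 876 refits of the 56 member calls over 27 settings, 780 kept direction and call, 92 kept the direction and lost the call, and 4 turned. All 4 turned under median centring in place of loess: Itga2b was 0.232 in activated cells at 16 h and 0.00443 in resting cells at 2 h, and Itgb7 was 0.502 and 0.489 in activated cells at 2 h and 16 h. Under median centring 7 members passed anti-TIM-3 over IgG in activated and 7 in resting cells at 2 h, 9 in activated and 8 in resting cells at 16 h, and 1 in the 2 h difference between the cell states. The share of all genes that passed is not given for the alternatives in this section. These counts therefore show only how the members' calls moved. Under median centring the median ratio of all genes was 0.212 to 0.389 over the 4 groups. Among all genes' calls, higher ones then made up 85.7% and 84.8% of the differences between cell states at 2 h and 16 h (loess: 64.3% and 54.9%), and 79.1% and 73.5% of those between times in activated and resting cells (loess: 53.2% and 30.6%). With Agilent's processed signals 2 members passed in resting cells at each time and 0 in the 2 h difference between cell states. With only the compared groups fitted, 0 passed in resting cells at 2 h and 1 in that 2 h difference. Without the 3 arrays that stood apart, an alternative chosen after seeing the data, 3 passed in resting cells at 2 h, 0 in resting cells at 16 h and 5 in the 16 h antigen effect with anti-TIM-3. For the antigen effect with IgG, signals scaled to the 75th percentile gave 3 at 2 h, and quantile normalization and the mean of kept probes each gave 2 at 16 h.

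Leaving out single arrays gave, for anti-TIM-3 over IgG, 2 to 3 members in activated and 1 in resting cells at 2 h, and 5 in activated and 0 to 1 in resting cells at 16 h. It gave 0 to 2 and 3 to 5 for activated minus resting cells at 2 h and 16 h, and 3 to 4 and 0 to 2 for 16 h minus 2 h in activated and resting cells. The antigen effect gave 4 to 5 at 2 h and 6 to 9 at 16 h with anti-TIM-3, and 4 to 6 and 2 to 4 with IgG, and the time effect in IgG-treated cells 9 in activated and 3 to 5 in resting cells. The count fell to 0 in resting cells at 16 h without replicate 1 or 3 of that group, and to 0 in the 2 h difference without replicate 4 of the activated cells.

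With the replicate block none of the 56 calls was lost. The block gave 7 members for 16 h over 2 h in resting IgG-treated cells, and it added Itgb1 to the ratios of activated cells at 16 h (-0.18, adjusted p = 0.028). Itgb1 also passed in the 16 h difference between activated and resting cells (-0.287, adjusted p = 0.038, against 0.0731 without the block). The second Itgb1 probe had ratios of -0.04 in activated and -0.08 in resting cells at 16 h. The causes of these changes were not tested, and the number of arrays limits all counts.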
